A study of Homo sapiens with 4 samples.

Results

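Autophagosome formation builds, extends and closes the double membrane which delivers cytoplasm to the lysosome. The 40 listed genes act in it, in its control or in later maturation and tethering. They were chosen by name, by a rule that uses no measured value, but with earlier results of these data known. Under the listed symbol, 38 were found in the deposited count table. ATG101 and RUBCN were found under their older symbols C12orf44 and KIAA0226, so 40 of 40 were found among 19402 rows. The cells were A549, an established human lung adenocarcinoma line, either depleted of NUPR1, a stress-induced nuclear protein with the alias p8, or serving as controls. The labels name neither the agent of the knockdown, nor the treatment of the control cells, nor whether the libraries came from separate cultures. Of 4 libraries of polyadenylated RNA, 2 were from each group, 1 sequenced single-end and 1 paired-end, but the table holds 1 column per group. There was therefore no replicate of any value and no test of the knockdown against the control. RNA came from whole cultures, in which less of a transcript in each cell and fewer cells with it cannot be told apart.

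Autophagy starts when the ULK1 kinase complex, held together by the scaffold RB1CC1 (FIP200), is released from inhibition by mTORC1. It switches on the class III phosphatidylinositol kinase PIK3C3 with BECN1, whose lipid product recruits WIPI proteins, while ATG9A vesicles and the ATG2 lipid transfer proteins bring membrane. A pair of ubiquitin-like conjugation reactions then attaches ATG12 to ATG5 and the ATG8 proteins (the LC3 and GABARAP subfamilies) to the lipid phosphatidylethanolamine on the growing membrane. Much of this pathway is controlled through phosphorylation, lipidation and turnover of proteins, which RNA counts do not show.

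The used rows summed to 16635336 reads for the knockdown and 20289107 reads for the control. The unit of level is CPM, the reads of a gene after TMM scaling to library size, with 95% Poisson intervals. Each difference is a log2 ratio, knockdown divided by control, with its 95% exact interval. Both kinds of interval cover counting error only. NUPR1, the target, had 71 reads after knockdown and 197 in the control, a log2 ratio of -1.21 (-1.63 to -0.81). KRT8 and KRT18, keratins of simple epithelium, were abundant at 10480 and 9129 CPM in the knockdown column against 8775 and 8071 in the control column, and ALDH1A1, which A549 cells express strongly, stood at 13420 and 13640 CPM. EPCAM (68 and 84 reads), KRT19 (22 and 46) and the alveolar type II markers SFTPB (53 and 33) and SFTPC (33 and 37) were low. The leukocyte, endothelial and fibroblast markers had at most 27 reads in a column.

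The 38 autophagosome genes with enough reads for a ratio differed between the columns by less than 1.5-fold with TMM scaling. Their shares past smaller limits are given beside those of all genes. A mean of at least 5 CPM was required before a ratio was read, which 38 of the 40 met, with 113 to 3664 reads each. A limit of 1.5-fold upward was passed by 0 of these 38 genes and the same limit downward by 0. Of all 10689 genes with that mean, 3.72% passed it upward and 4.44% downward. The share in either direction was 7.91% among the 9327 genes inside the members' own range of mean CPM. At a limit of 1.2-fold, 10 of the 38 (26.3%) were higher and 5 (13.2%) lower, beside 17.4% and 17.2% of all genes. Counting intervals lay wholly above equal levels for 15 of the 38 (39.5%) and wholly below for 7 (18.4%), beside 27.9% and 26.4% of all genes. The median log2 ratio of the 38 was 0.15, with 22 above zero and 16 below, and that of all genes was 0.01. The quartiles of the 38 ran from -0.07 to 0.26, and those of all genes from -0.18 to 0.19.

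**Figure D1:**
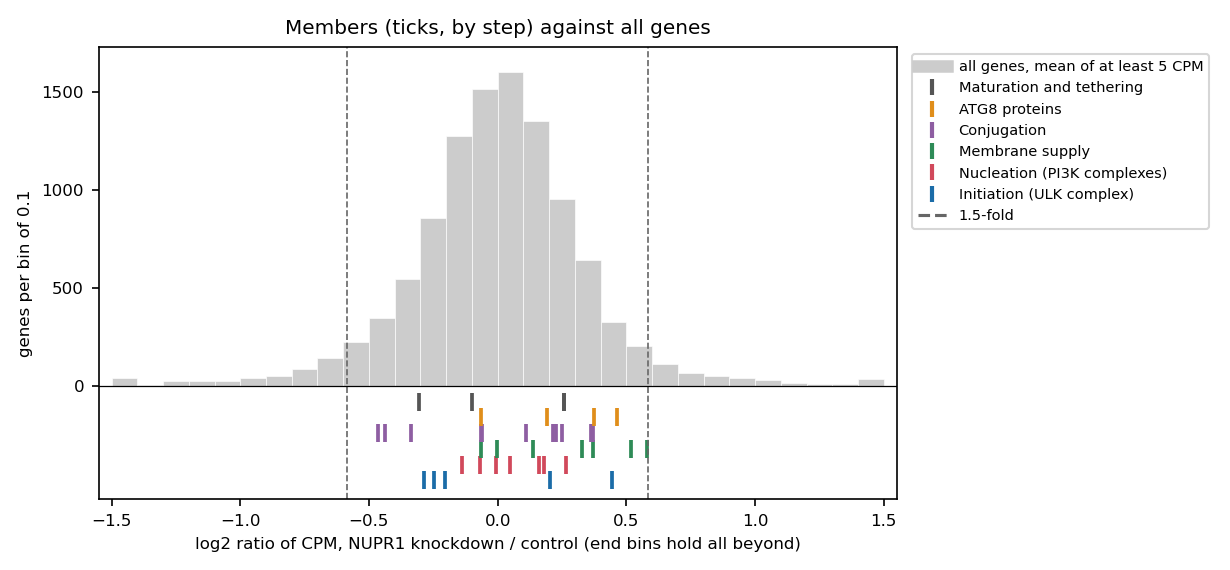
Grey bars count all genes with a mean of at least 5 CPM by their log2 ratio of knockdown over control, in bins of 0.1 with end bins that hold all beyond; ticks below mark the 38 autophagosome genes, 1 row per step, and dashed lines mark 1.5-fold. All 38 ticks lie between the dashed lines, from -0.46 for ATG16L1 to 0.58 for ATG2A.

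Expression per length spanned a wide range within the pathway. The deposited RPKM, which divides reads by gene length and library size, had a median over the 40 genes of 5.42 in the control column and 5.5 in the knockdown column, below the 8.68 and 8.79 of all measured genes. The highest RPKM in the control column belonged to VMP1 (84.1), a membrane protein that moves phospholipids in the endoplasmic reticulum, to GABARAP (66.5), to the lipid-conjugating enzyme ATG3 (49.1), to GABARAPL2 (44.3), to ATG101 (40.3) and to BECN1 (39.2). In the knockdown column the same 6 genes led, with GABARAP first at 93.5 and VMP1 second at 85.7. ATG16L1 went from rank 7 to rank 13. RPKM lay under 2 in the control column for 6 genes, namely RUBCN, ATG2B, ATG16L2, EPG5, PLEKHM1 and MAP1LC3B2. These levels rest on the deposited gene lengths, which for PLEKHM1 was 13838 bases, 2.63 times its longest GENCODE transcript, and for GABARAPL2 1002 bases, 0.441 times. Among the other leading genes it was 0.503 times for VMP1, 0.5655 for GABARAP and 0.578 for BECN1, against 0.9957 for ATG3 and 0.9986 for ATG101. The order of these genes with other lengths was not computed.

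**Figure D2:**
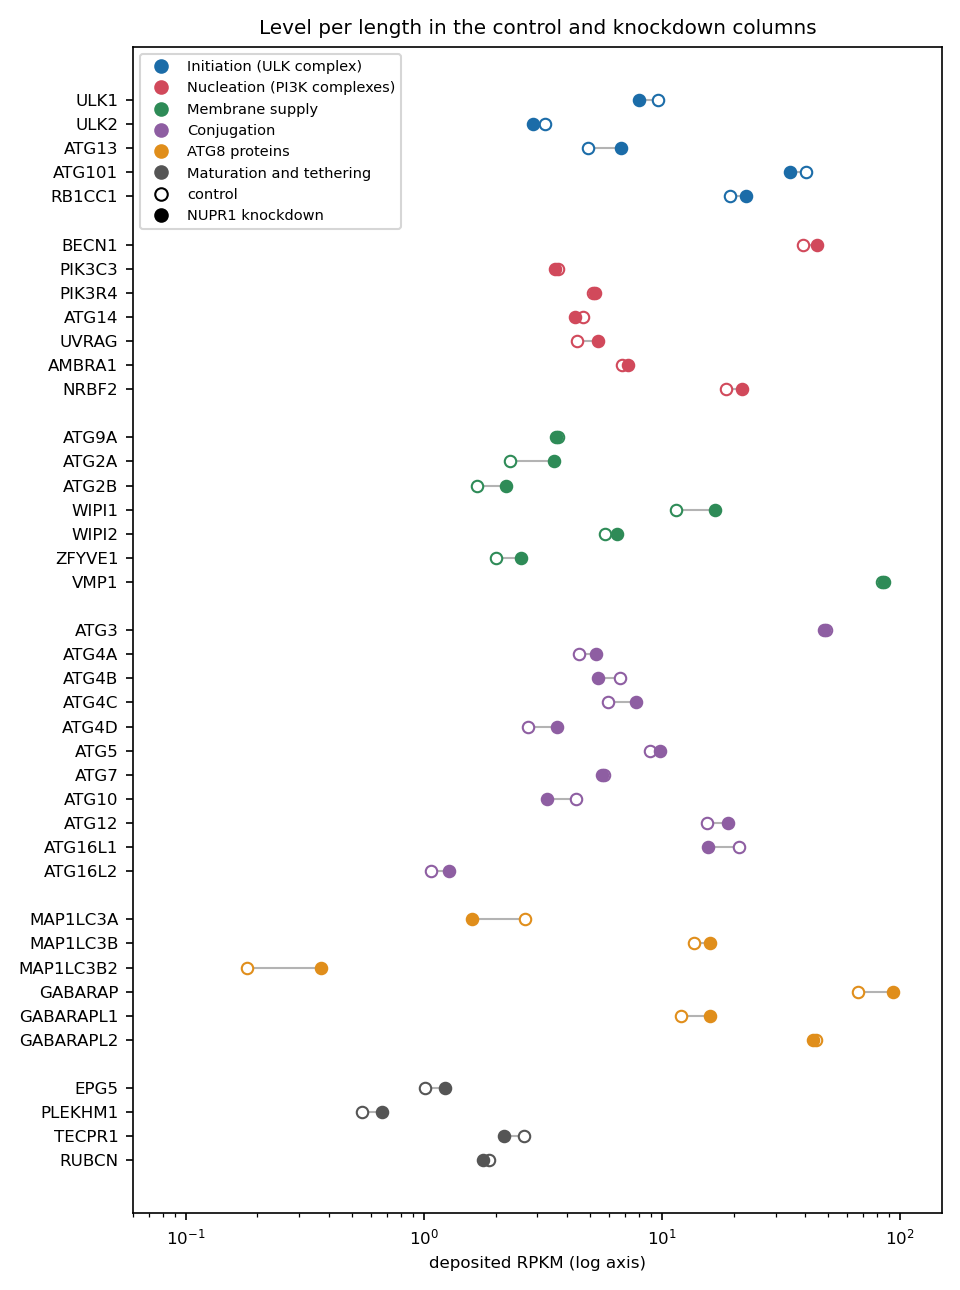
Deposited RPKM of each of the 40 genes on a log axis, with open circles for the control column and filled circles for the knockdown column, coloured by step. The distance between the circles of a gene is small beside the distance between genes, which runs from 0.18 for MAP1LC3B2 to 84.1 for VMP1 in the control column.

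In the initiation complex the kinases were lower in the knockdown column and their scaffold and adaptor higher. ULK1, the kinase that starts autophagy, had 688 reads against 1005, or 41.0 CPM (38.0 to 44.1) against 50.01 (47.0 to 53.2), a log2 ratio of -0.29 (-0.43 to -0.15). Its close relative ULK2 had 25.5 CPM (23.2 to 28.1) against 29.4 (27.1 to 31.9), a log2 ratio of -0.20 (-0.39 to -0.02). ATG101, the partner that stabilises ATG13, had 48.6 against 57.8 CPM, a log2 ratio of -0.25 (-0.38 to -0.12). These ratios lay below zero with their intervals. Only that of ULK1 passed 1.2-fold, which it did not with scaling by total reads (-0.26) or deposited RPKM plus 0.1 (-0.25) or plus 1 (-0.23). ATG13, the adaptor that links the kinase to the scaffold, went the other way, with 674 reads against 593 and 40.1 CPM (37.2 to 43.3) against 29.5 (27.2 to 32.0), a log2 ratio of 0.44 (0.28 to 0.61). RB1CC1, the scaffold, had 147 CPM against 128, a log2 ratio of 0.20 (0.12 to 0.28). Of the 5 genes of this step, intervals of 3 lay wholly below equal levels, beside 26.4% of all genes, and of 2 wholly above, beside 27.9%. A limit of 1.2-fold was passed by 1 of the 5 (20%) downward and 1 (20%) upward, beside 17.2% and 17.4% of all genes. The ratio of ULK1 reads to ATG13 reads, on which library scaling has no effect, was 1.70 in the control column and 1.02 in the knockdown column, a change to 0.602 of the control value (0.519 to 0.6996).

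Of the 7 genes of the lipid kinase complexes of nucleation, 3 had intervals wholly above equal levels, beside 27.9% of all genes, and 4 had intervals that included them. BECN1, the core subunit that many regulators bind, had 2069 reads against 2213, or 123 CPM (118 to 129) against 110 (106 to 115), a log2 ratio of 0.16 (0.07 to 0.25). The catalytic subunit PIK3C3 (VPS34) had 27.4 CPM (24.9 to 30.01) against 28.7 (26.4 to 31.2), a log2 ratio of -0.07 (-0.25 to 0.11). PIK3R4, the regulatory subunit that anchors it, had 25.7 against 25.8 CPM, with a log2 ratio of -0.01 (-0.19 to 0.18) that turned to 0.02 with scaling by total reads and with deposited RPKM. For both of these the interval held equal levels. AMBRA1, which recruits BECN1 and is a substrate of ULK1, also included equal levels at 0.05 (-0.10 to 0.20), whereas NRBF2, a subunit of the ATG14 complex, had 0.18 (0.03 to 0.34).

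ATG14 and UVRAG bind the kinase core in place of one another and direct it to autophagosome formation or to endosomes. ATG14 had 358 reads against 472, or 21.3 CPM (19.2 to 23.6) against 23.5 (21.4 to 25.7), a log2 ratio of -0.14 (-0.34 to 0.06). UVRAG had 558 reads against 556, or 33.2 CPM (30.5 to 36.1) against 27.7 (25.4 to 30.1), a log2 ratio of 0.26 (0.09 to 0.44). UVRAG thereby just passed 1.2-fold, which it did not with upper-quartile factors (0.25) or RPKM plus 1 (0.24). The read ratio of ATG14 to UVRAG was 0.849 in the control column and 0.642 in the knockdown column, 0.756 of the control value (0.628 to 0.909). RUBCN (Rubicon), which inhibits the UVRAG complex, had 272 reads against 349, a log2 ratio of -0.10 (-0.33 to 0.13) that included equal levels.

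The genes of membrane supply included the member with the highest ratio, and 4 of the 7 passed 1.2-fold upward, beside 17.4% of all genes. ATG2A, which transfers lipid from the endoplasmic reticulum into the growing membrane, had 379 reads against 303, or 22.6 CPM (20.4 to 24.96) against 15.1 (13.4 to 16.9), a log2 ratio of 0.58 (0.36 to 0.80). At 0.582 it lay just under the 1.5-fold limit of 0.585, and above it at 0.609 with scaling by total reads. Its paralog ATG2B had 402 reads against 372, or 23.9 CPM (21.7 to 26.4) against 18.5 (16.7 to 20.5), a log2 ratio of 0.37 (0.16 to 0.58). Both ATG2 genes were thus higher in the knockdown column, and their read ratio to each other differed between the columns by less than counting error (1.16-fold, 0.936 to 1.43). WIPI1, a propeller protein that reads the lipid made by PIK3C3, had 526 reads against 440, or 31.3 CPM (28.7 to 34.1) against 21.9 (19.9 to 24.0), a log2 ratio of 0.52 (0.33 to 0.70). In GENCODE release 29, 24.3% of WIPI1 exon bases overlap exons of ARSG on the other strand, a gene with 144 reads against 112 and a log2 ratio of 0.62 (0.26 to 0.99), and its part in the WIPI1 value was not tested.

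The remaining genes of this step lay closer to equal levels, apart from ZFYVE1, which passed 1.2-fold upward. WIPI2, which brings ATG16L1 to the membrane, had 42.3 CPM (39.2 to 45.5) against 38.4 (35.8 to 41.2), a log2 ratio of 0.14 (-0.01 to 0.29). The read ratio of WIPI1 to WIPI2 was 0.570 in the control and 0.741 in the knockdown column, 1.30 times as high (1.10 to 1.53). ZFYVE1 (DFCP1), a marker of the membrane platform where autophagosomes emerge, had 191 reads against 182, a log2 ratio of 0.33 (0.03 to 0.63). ATG9A, the scramblase whose vesicles seed the membrane, had 17.6 against 18.4 CPM, a log2 ratio of -0.06 (-0.29 to 0.16). In GENCODE release 29, 38.8% of ATG9A exon bases are shared with AC068946.2 on the same strand. VMP1 had 3057 reads against 3664, or 182 CPM in each column, with a log2 ratio within 0.07 of zero, and a sign that turned with scaling by total reads or deposited RPKM. Of the 7 genes of membrane supply, 5 had a ratio above zero, beside 51.2% of all genes, and the intervals of 4 lay wholly above equal levels, beside 27.9%.

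**Figure D3:**
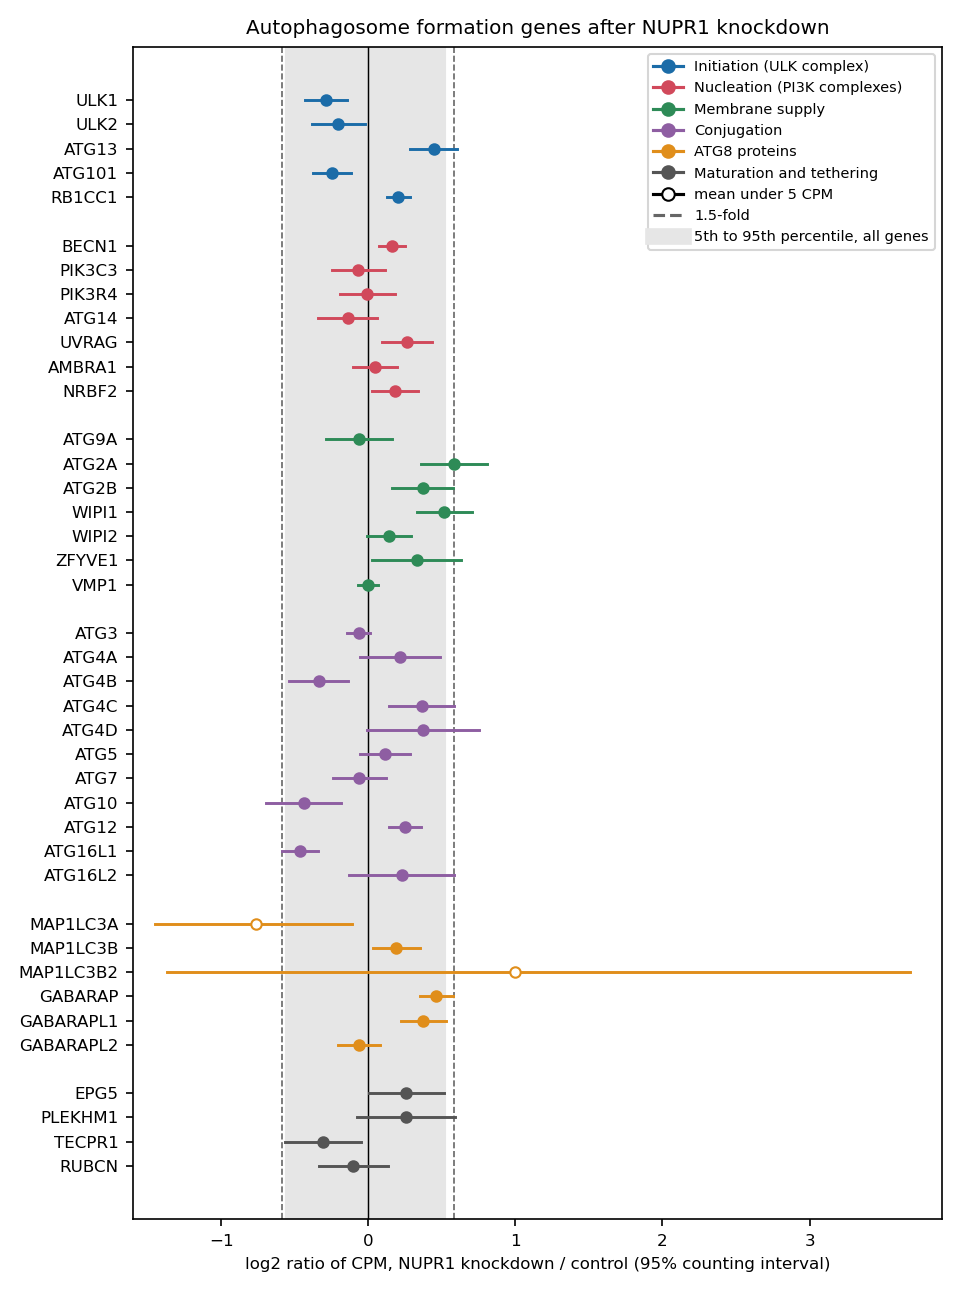
Points give the log2 ratio of CPM, knockdown over control, of each of the 40 genes with its 95% counting interval, ordered by step; open points had a mean under 5 CPM, dashed lines mark 1.5-fold, and the grey band spans the 5th to the 95th percentile of all measured genes (-0.56 to 0.52). ATG2A is the filled point beyond that band, and ATG16L1, ATG10 and ATG4B are the lowest filled points.

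The promoters of the members with the highest and the lowest ratio are shown for their letters. RefSeq windows on GRCh38.p14, from 250 bases before to 50 after a start, were at hand for 35 of the 40 genes, with 2 windows for 5 of them, so 40 windows in all. Capitals mark any of 6 motifs searched on both strands, the E-box CACGTG bound by the TFEB family, the AP-1 site TGAGTCA, the core of the ATF4 and CHOP composite site TGATGCA, the ETS site CCGGAAG, the GC box GGGCGG and the CCAAT box, whose reverse strand ATTGG was searched too. ATG2A lies at chr11:64917160-64917459 on the minus strand and WIPI1 at chr17:68457447-68457746 on the minus strand, and these had the highest ratios. ATG16L1 lies at chr2:233251423-233251722 on the plus strand and ATG10 at chr5:81971773-81972072 on the plus strand, and these had the lowest.
ATG2A: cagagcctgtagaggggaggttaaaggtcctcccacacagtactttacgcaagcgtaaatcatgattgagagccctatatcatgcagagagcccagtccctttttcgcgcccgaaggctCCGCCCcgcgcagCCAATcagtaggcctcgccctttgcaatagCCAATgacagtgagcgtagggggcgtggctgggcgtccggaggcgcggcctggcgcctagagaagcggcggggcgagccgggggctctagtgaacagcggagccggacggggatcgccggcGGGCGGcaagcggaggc
WIPI1: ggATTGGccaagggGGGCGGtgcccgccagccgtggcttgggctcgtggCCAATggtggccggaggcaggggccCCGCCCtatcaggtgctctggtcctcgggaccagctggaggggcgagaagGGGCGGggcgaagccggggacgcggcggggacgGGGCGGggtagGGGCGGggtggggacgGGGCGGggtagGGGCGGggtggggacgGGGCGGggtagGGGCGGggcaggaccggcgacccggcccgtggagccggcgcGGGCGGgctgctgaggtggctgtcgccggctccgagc
ATG16L1: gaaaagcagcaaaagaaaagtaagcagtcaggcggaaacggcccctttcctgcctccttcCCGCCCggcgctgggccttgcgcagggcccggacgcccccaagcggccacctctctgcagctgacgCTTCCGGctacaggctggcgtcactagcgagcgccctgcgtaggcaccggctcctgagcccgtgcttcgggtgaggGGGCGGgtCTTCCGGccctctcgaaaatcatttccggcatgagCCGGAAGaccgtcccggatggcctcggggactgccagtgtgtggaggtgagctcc
ATG10: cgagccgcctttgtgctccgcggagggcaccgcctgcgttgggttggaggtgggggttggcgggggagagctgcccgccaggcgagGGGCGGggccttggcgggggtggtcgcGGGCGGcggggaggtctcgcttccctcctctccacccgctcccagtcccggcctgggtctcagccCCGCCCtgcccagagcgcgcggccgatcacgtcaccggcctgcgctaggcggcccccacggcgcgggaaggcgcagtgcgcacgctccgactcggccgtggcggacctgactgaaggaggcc
The WIPI1 window held 10 GC boxes, most of them in a repeated stretch, where the median window of a measured gene held 1 and 0.403% held as many. It held 2 CCAAT boxes, as did that of ATG2A, which had 2 GC boxes. The ATG16L1 window held 3 ETS sites and 2 GC boxes, and the ATG10 window 3 GC boxes. None of the 4 windows held the E-box, AP-1 or ATF4 and CHOP letters.

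Across the 40 windows the E-box was found in 3 (7.5%), beside 9.46% of the 11912 windows of measured genes and 7.26% of all 35116. The 3 were those of ATG14, ATG3 and NRBF2, at chr14:55411834-55411863 on the minus strand, chr3:112561963-112561992 on the minus strand and chr10:63133078-63133107 on the plus strand, shown here as 30 bases with 1 E-box in capitals. The ATG3 window held 2 E-boxes, of which the first is shown.
ATG14: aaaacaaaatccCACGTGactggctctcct
ATG3: cctttctcacgtCACGTGccgggagagtct
NRBF2: tcctCACGTGacttcagtgtagactttaag
The log2 ratios of these 3 genes were -0.14, -0.07 and 0.18, all within 1.2-fold. AP-1 letters were in 1 window (2.5%), that of ZFYVE1, beside 3.29% of measured windows, and the ATF4 and CHOP letters in 0, beside 1.5%. The ETS site was in 13 windows (32.5%) beside 17.5%, the GC box in 23 (57.5%) beside 66.8%, and the CCAAT box in 14 (35%) beside 34.8%. The motifs were chosen with these windows in view, and a match is not a bound site.

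Conjugation held the lowest ratios, and its enzymes and adaptors went in different directions. ATG16L1, which places the ATG12 and ATG5 conjugate on the membrane, had 874 reads against 1442, or 52.0 CPM (48.6 to 55.6) against 71.8 (68.1 to 75.6), a log2 ratio of -0.46 (-0.59 to -0.34). Its partners did not share this. ATG5 had 32.5 CPM (29.8 to 35.4) against 30.1 (27.8 to 32.6), a log2 ratio of 0.11 (-0.06 to 0.28). ATG12, the ubiquitin-like protein joined to it, had 1411 reads against 1420, or 84.0 CPM (79.7 to 88.5) against 70.7 (67.0 to 74.4), a log2 ratio of 0.25 (0.14 to 0.36). The read ratio of ATG5 to ATG16L1 was 0.420 in the control column and 0.625 in the knockdown column, 1.49 times as high (1.29 to 1.72), and that of ATG12 to ATG16L1 was 0.985 and 1.61, 1.64 times as high (1.46 to 1.84). ATG16L2, a paralog of ATG16L1, was low at 130 reads against 133, a log2 ratio of 0.23 (-0.13 to 0.59).

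Among the enzymes that carry the ubiquitin-like proteins, ATG10 alone stood apart from equal levels. ATG10 transfers ATG12 to ATG5 and had 209 reads against 339, or 12.4 CPM (10.8 to 14.3) against 16.9 (15.1 to 18.8), a log2 ratio of -0.44 (-0.69 to -0.19). In the same release 6.86% of its exon bases overlap RPS23 on the other strand, a ribosomal protein gene with 20874 reads against 20856 and a log2 ratio of 0.26 (0.23 to 0.29). ATG7, which activates both ATG12 and the ATG8 proteins, had 27.6 CPM (25.1 to 30.2) against 28.8 (26.5 to 31.2), a log2 ratio of -0.06 (-0.24 to 0.12). ATG3, which passes ATG8 proteins to the lipid, had 2354 reads against 2949, a log2 ratio of -0.07 (-0.14 to 0.01). Both held equal levels within their intervals. In GENCODE release 29, 18.1% of ATG7 exon bases overlap VGLL4 on the other strand. VGLL4 had 964 reads against 872, a log2 ratio of 0.40 (0.27 to 0.54), and its part in the ATG7 value was not tested.

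The ATG4 proteases, which trim ATG8 proteins before conjugation and release them afterwards, divided by paralog. ATG4B, the protease with the broadest action on ATG8 proteins, had 342 reads against 517, or 20.4 CPM (18.3 to 22.6) against 25.7 (23.6 to 28.0), a log2 ratio of -0.34 (-0.54 to -0.14). ATG4C had 349 reads against 325, or 20.8 CPM (18.7 to 23.1) against 16.2 (14.5 to 18.0), a log2 ratio of 0.36 (0.14 to 0.58). ATG4A had 228 against 235 reads and a log2 ratio of 0.22 (-0.05 to 0.48), and ATG4D 122 against 113 and 0.37 (-0.01 to 0.75), both with intervals that included equal levels. The read ratio of ATG4B to ATG4C was 1.59 in the control column and 0.980 in the knockdown column, so that ATG4B reads outnumbered ATG4C reads in the control column and not in the knockdown column. Set against ATG4A, ATG4C and ATG4D in turn, ATG4B stood at 0.682 (0.540 to 0.862), 0.616 (0.4999 to 0.759) and 0.613 (0.454 to 0.828) of its control ratio.

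Among the ATG8 proteins GABARAP and GABARAPL1 were higher in the knockdown column and GABARAPL2 was not. GABARAP had 1418 reads against 1231, or 84.4 CPM (80.1 to 88.9) against 61.3 (57.9 to 64.8), a log2 ratio of 0.46 (0.35 to 0.57). GABARAPL1 had 717 reads against 662, or 42.7 CPM (39.6 to 45.9) against 32.9 (30.5 to 35.5), a log2 ratio of 0.37 (0.22 to 0.53). GABARAPL2 (GATE-16) had 711 reads against 890, or 42.3 CPM (39.3 to 45.6) against 44.3 (41.4 to 47.3), a log2 ratio of -0.06 (-0.21 to 0.08). The read ratio of GABARAP to GABARAPL2 was 1.38 in the control column and 1.99 in the knockdown column, 1.44 times as high (1.27 to 1.64). MAP1LC3B (LC3B), the usual marker of autophagosomes, had 622 reads against 652, or 37.0 CPM (34.2 to 40.1) against 32.4 (29.999 to 35.03), a log2 ratio of 0.19 (0.03 to 0.35). The read ratio of GABARAP to it was 1.21 times as high after knockdown (1.05 to 1.38). In GENCODE release 29, 30.5% of GABARAP exon bases are shared with the gene AC120057.2 on the same strand and 25.2% with a transcript on the other strand, and their part in its count was not tested.

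The last ATG8 genes were too low for a firm ratio. MAP1LC3A (LC3A) had 30 reads after knockdown against 61 in the control, 1.79 CPM (1.21 to 2.55) against 3.04 (2.32 to 3.9). Its log2 ratio of -0.76 (-1.45 to -0.11) was the lowest of the 40, but its mean was under 5 CPM. MAP1LC3B2, a near-identical copy of MAP1LC3B with which it can share reads, had 5 reads against 3, a log2 ratio of 1.00 with an interval from -1.37 to 3.68. By reads per deposited length the GABARAP subfamily made up 88.1% of the 6 ATG8 transcripts in the control column and 89.5% in the knockdown column. Within it GABARAP made up 47.7% and 54.8% of all ATG8, and GABARAPL2 31.8% and 25.3%, while MAP1LC3B had 9.82% and 9.34%. All these shares depend on the deposited lengths. These were 0.5655 and 0.4406 times the longest GENCODE transcript for GABARAP and GABARAPL2, 0.7705 for MAP1LC3B and 0.8507 for GABARAPL1. The summed CPM of the 4 ATG8 genes over 5 CPM was 206.5 after knockdown and 170.9 in the control, a log2 ratio of 0.27 (0.20 to 0.34), most of which GABARAP made up. The same ratio of sums was 0.04 for initiation, 0.10 for nucleation, 0.12 for membrane supply, -0.04 for conjugation, -0.003 for maturation, and 0.07 for the 38 members together. It was -0.03 for all measured genes and 0.01 for those inside the members' range of mean CPM.

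**Figure D4:**
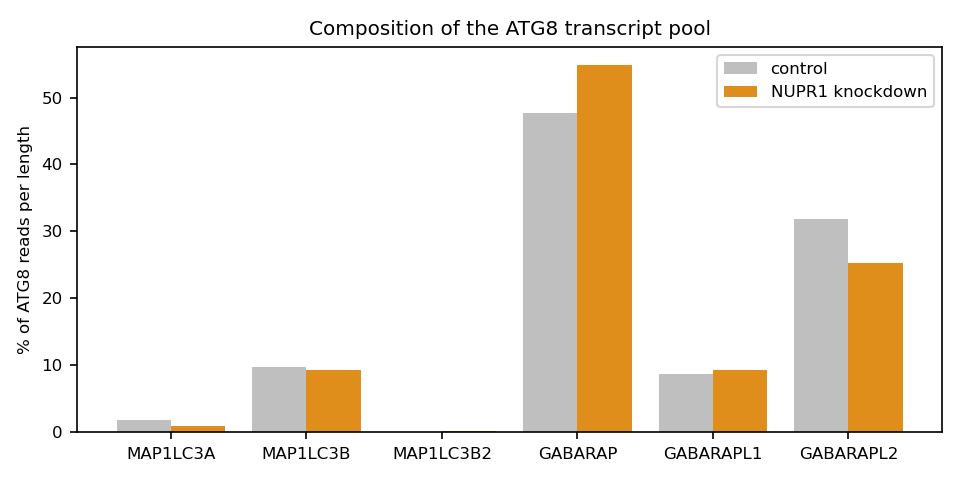
Bars give the share of each ATG8 gene in the summed reads per deposited length of the 6 genes, grey for the control column and orange for the knockdown column. GABARAP takes 47.7% and 54.8% and GABARAPL2 31.8% and 25.3%, while the LC3 genes together take 11.9% and 10.5%. The shares depend on the deposited lengths.

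Genes of maturation and tethering lay among the lowest levels. EPG5, a tether between autophagosomes and late endosomes, had 261 reads in each column, 15.5 CPM (13.7 to 17.5) against 13.0 (11.5 to 14.7), a log2 ratio of 0.26 (0.01 to 0.51). PLEKHM1, an adaptor that joins RAB7 and the HOPS complex to ATG8 proteins, had 153 reads in each column and a log2 ratio of 0.26 (-0.07 to 0.59). TECPR1, which binds the ATG12 and ATG5 conjugate on lysosomal membranes, went the other way with 213 reads against 315, or 12.7 CPM (11.0 to 14.5) against 15.7 (14.0 to 17.5), a log2 ratio of -0.31 (-0.56 to -0.05).

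**Figure D5:**
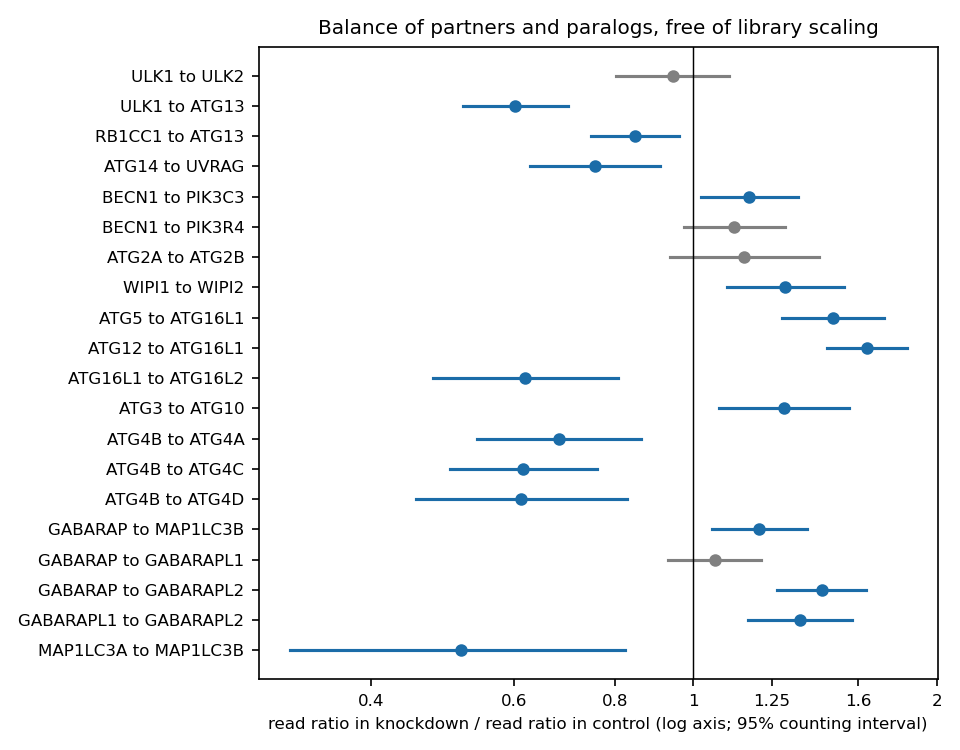
Each point is the read ratio of a pair of genes in the knockdown column divided by the same ratio in the control column, on a log axis, with its 95% exact counting interval; blue intervals exclude 1 and grey ones include it. Of the pairs with both genes above 5 CPM, ATG12 to ATG16L1 is highest at 1.64 and ULK1 to ATG13 lowest at 0.602; MAP1LC3A to MAP1LC3B at 0.516 rests on a gene under that level.

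Of the 20 pairs of partners and paralogs, 19 had both genes above a mean of 5 CPM. Intervals of 15 of these 19 (78.9%) excluded an equal ratio, beside 362 of all 703 pairs (51.5%) that the 38 measured members form. The remaining 4 were ULK1 to ULK2, BECN1 to PIK3R4, ATG2A to ATG2B and GABARAP to GABARAPL1. The pairs were picked with earlier results known, share genes and have no replicate, so their share is a description of these columns.

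Of 35 further genes of autophagosome formation and its control, listed as a comparison, 29 were measured, 21 higher and 8 lower, with a median log2 ratio of 0.08. A ratio past 1.5-fold upward was held by 2 of the 29, 6.90% beside 3.72% of all genes, namely the kinase DAPK1, which frees BECN1 from its inhibitor, with 1818 reads against 1277 and a log2 ratio of 0.77 (0.66 to 0.87), and ACBD5, a peroxisomal tether that takes part in peroxisome removal, with 2428 against 1798 and 0.69 (0.60 to 0.78). The lowest was FYCO1, which links autophagosomes to kinesin, at -0.22 (-0.40 to -0.04). Of 18 cargo receptors, 13 had a ratio above zero, the median being 0.18, and 1 passed 1.5-fold upward, SQSTM1 (p62), with 15228 reads against 8430 and a log2 ratio of 1.11 (1.07 to 1.15). The lowest cargo receptor was FKBP8 at -0.38 (-0.51 to -0.26). Of 14 measured genes of fusion with the lysosome, 6 lay above zero and 8 below, and their median was -0.04, with PLEKHM2 lowest at -0.44 (-0.62 to -0.26), and 0 passed 1.5-fold. Intervals of 2 of these 14 (14.3%) lay wholly above equal levels and of 5 (35.7%) wholly below, beside 27.9% and 26.4% of all genes. For the 29 further genes these counts were 10 (34.5%) and 4 (13.8%), and for the 18 cargo receptors 9 (50%) and 2 (11.1%). Ratios above zero were held by 72.4% of the 29, 72.2% of the 18 and 42.9% of the 14, beside 51.2% of all genes. SNAP25, the gene named in the study's title, had 46 reads against 295, a log2 ratio of -2.42 (-2.90 to -1.97). No difference between these lists and the 38 members was tested.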

How the data were processed

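Polyadenylated RNA of A549 cells was sequenced as 4 libraries, and the deposited tables hold 1 column per group. The authors deposited whole-number read counts per gene for 19402 rows and RPKM values for 19381 rows; RPKM values over 1 equal count divided by gene length and 1 constant per column within 1%. The build hg19 and the tools TopHat2 2.0.10 and edgeR 3.2.2 are listed, with no role, per the submitters' processing notes. Not given in the sources used here are the counter, the annotation, the strand setting and how paired-end and single-end libraries entered 1 column. If strand was ignored, reads of genes that overlap on opposite strands cannot be told apart. The knockdown column's name differs from its library titles by 1 letter.

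The authors' gene symbols turned into dates (26) were restored from the descriptions, and 3 rows with a broken name or length were left out (0.0872% and 0.0509% of reads), leaving 19399. TMM factors (1.01 and 0.991) were computed with edgeR 4.0.16 in R 4.3.3 on the 14175 genes that passed filterByExpr (minimum count 10, minimum total 15). The planned quasi-likelihood test needs replicates, and a single column per group leaves 0 residual degrees of freedom, so the planned description by ratios took its place. Poisson intervals, exact conditional intervals of ratios and conditional odds ratios for pairs, all at 95%, were computed with scipy 1.17.1. Reads carry no molecular identifiers, so intervals cover counting error only, and if mates were counted separately they are too narrow even for that. No pseudocount was added. The ratio script was tested on simulated counts for 10689 genes, where 95.5% of intervals held the true ratio. These counts had Poisson error alone, as the intervals assume, so the test checks the computation and not the error of these data. Promoter windows came from RefSeq (GRCh38.p14), and exon overlaps and transcript lengths from GENCODE release 29, which is on another build than the tables. At least 10% of exon bases were shared with another gene for 7 members, ATG9A, GABARAP and WIPI1 as given with their values, ATG101 (19.2%), ATG7 (18.1%), ATG4D (15.0%) and BECN1 (12.4%).

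All 40 members are named, with the genes of 3 further lists that passed 1.5-fold or had the highest or lowest ratio, except 1 gene that is not reported here. Members, lists, gene pairs and motifs were chosen with earlier results of these data known.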

Additional observations from a re-analysis of the deposited data

How the results depend on the processing

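No paired analysis was possible because neither table separates the libraries of a group. Leaving out a library and the DESeq2 test were therefore not run. The median log2 ratio of the members, 0.15, ran from 0.13 with RPKM plus 1 to 0.18 with RPKM plus 0.1 over 10 alternatives. The number at least 1.5-fold higher was 0, and it became 1 with scaling by total reads (ATG2A at 0.609), 1 with RPKM plus 0.1 (ATG2A at 0.587) and 1 with no filter on low counts (MAP1LC3B2, 5 reads against 3). The number at least 1.5-fold lower was 0, and it became 1 with a minimum mean of 1 CPM and 1 with no filter, where MAP1LC3A, with 30 reads against 61, entered. The number at least 1.2-fold apart was 15 and ran from 12 to 18. PIK3R4 and VMP1 changed sign with scaling by total reads and with either RPKM pseudocount, and the other 36 measured members kept their sign in every alternative that gave them a value. Of those 15 members, 10 passed 1.2-fold in every alternative, while ULK1, UVRAG, ATG4B, TECPR1 and ZFYVE1 did not in at least 1. Half-widths of the members' counting intervals had a median of 0.18 on the log2 scale, and the spread between cultures is not in them.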
